A study of Drosophila melanogaster with 3 samples.

Results

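The proteasome is the large protease of the cell that degrades proteins tagged with ubiquitin. Its barrel-shaped core is built from stacked rings of alpha and beta subunits, with the cutting sites on the inside, and its regulatory cap holds a ring of ATPases (Rpt) that unfold the substrate and non-ATPase subunits (Rpn) that bind and remove ubiquitin. In insects, the steroid hormone ecdysone acts through the ecdysone receptor EcR, a nuclear receptor that binds DNA with its partner ultraspiracle, and larval tissues are broken down and adult ones built during metamorphosis. The genes described here are the protein-coding genes whose symbols start with Prosalpha, Prosbeta, Rpn plus a digit or Rpt plus a digit. There are 48 of them among the 13945 protein-coding genes on chromosomes that carry peaks. The core accounts for 25 (12 Prosalpha and 13 Prosbeta genes) and the cap for 23 (9 Rpt and 14 Rpn genes). Of the 48, 32 are the standard subunits, and 16 have symbols that end in R or T, with or without a number. These 16 are called paralogues below, and many such duplicates are known in Drosophila melanogaster to be active mainly in the male germline.

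EcR binding was mapped by chromatin immunoprecipitation and sequencing (ChIP-seq) in whole Drosophila melanogaster pupae aged 24 hours. All animals were of the EcR-GFP strain, a transgenic line in which EcR carries eGFP at its C-terminus, and the precipitation used an antibody against GFP. Males and females were pooled. The 3 biological replicates, each a biosample of its own, make up the only group, so no gain or loss of binding could be tested. Which tissue or cell type a peak comes from cannot be told apart in whole animals, and the sequence that drives the transgene is not given in the sources used here.

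Each replicate had a deposited list of 30000 peaks, the pooled alignments gave another list of 30000, and an optimal list of 9095 peaks was thresholded by the irreproducible discovery rate, which scores the agreement of ranked peaks across replicates. The replicate and pooled lists hold exactly 30000 peaks each, which may be a set length. Pooled peaks ranked below 9095 are not in the thresholded list, because all 9095 optimal peaks were the strongest pooled peaks by the deposited signal. That signal served here to give each peak a rank inside its list, 1 being the strongest. Eip75B, a textbook early target of the receptor, held 83 optimal summits. The read depth behind the peaks is unknown. A gene was called bound at its promoter when a summit, the highest point of a peak, lay within 500 bp of an annotated start. It was called bound in its region when a summit lay in the gene body or up to 2 kb upstream.

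Of the 8 motifs searched, the most frequent in the promoters of standard subunits was the DRE core, TATCGATA, the element bound in Drosophila by the factor DREF at many housekeeping promoters. It was found on either strand (the letters read the same on both) in the promoter, taken as the 250 bases before and 50 after the outermost start, of 12 of 32 standard subunit genes (37.5%), 0 of 16 paralogues and 9.36% of all protein-coding genes. The copies of 8 of these genes are shown with 8 bases on each side, in the direction of the gene, with the DRE core in capitals.
Prosalpha6: gaatccctTATCGATAcccgatac
Prosbeta2: tgaatataTATCGATAcaatatcg
Prosbeta6: tgtataccTATCGATAacgtttaa
Rpt5: gctgtcacTATCGATAagcgccgg
Rpn3: tatcggagTATCGATAtcgaaaag
Rpn7: gtataattTATCGATAattttggg
Rpn9: cggttaaaTATCGATAttctcgcg
Rpn12: ttaaaataTATCGATAttaaagca

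In dm6 coordinates of RefSeq's release 6 sequence, the capitals of Prosalpha6 are chr2L:10221335-10221342 on the plus strand, -12 bp from the outermost start and 121 bp from the gene's nearest pooled summit. Those of Prosbeta2 are chr3L:14999941-14999948 (plus strand), -6 bp from the start and 395 bp from its summit. The Rpt5 copy, at chr3R:23752830-23752837 (plus strand), lies -42 bp from the start and 52 bp from its summit, and the Rpn9 copy, at chr3R:23733429-23733436 (minus strand), lies 29 bp past the start and 38 bp from a summit. The Rpn12 copy, at chr3L:16582812-16582819 (plus strand), is -212 bp from the start and 138 bp from a summit. The Rpn3 copy, at chr2L:19051593-19051600 (plus strand), is -193 bp from the start and 252 bp from its summit. The last copies were far from any summit of their own gene: Rpn7, at chr3R:22462044-22462051 (minus strand), 625 bp away, and Prosbeta6, at chr3L:16610455-16610462 (minus strand), 1851 bp away. Copies were thus present at promoters with and without a pooled summit.

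The other sequence set shown is the EcR hexamer, the short element that a nuclear receptor of this kind reads. Searched on either strand were the form AGGTCA, the same site with another first letter (GGGTCA), and a further form that is spelled AGTTCA. A match occurred within 100 bp of 6 of the 12 optimal summits at proteasome genes and of 29% of all optimal summits. The match nearest to the summit is shown for 4 of these genes, with 8 bases on each side and the hexamer in capitals.
Prosbeta2: agggatgcAGTTCAcaaaagtg
Rpt2: gagtaaaaAGTTCAtcaaacgt
Rpn10: atgccgatAGTTCAggcagcac
Rpn12: tgaaaacgAGTTCAatattttt

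The capitals are at chr3L:14999641-14999646 (plus strand) for Prosbeta2, 94 bp from the summit, and at chr3R:23931363-23931368 (minus strand) for Rpt2, 92 bp from it. For Rpn10 they are at chr3L:21537038-21537043 (plus strand), 32 bp from the summit, and for Rpn12 at chr3L:16581760-16581765 (plus strand), 23 bp from it. All 4 shown matches have the form AGTTCA. The stretch just upstream of the annotated start of Rpn10, chr3L:21536862-21536999 on the plus strand, is printed because the Rpn10 summit is the only optimal one at these genes that lies in no other gene's region. It has no capitals, since none of the 8 motifs searched was found in it.
Rpn10 upstream: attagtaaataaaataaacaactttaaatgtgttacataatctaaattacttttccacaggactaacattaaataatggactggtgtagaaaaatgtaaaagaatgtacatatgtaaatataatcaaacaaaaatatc

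EcR-GFP peaks of the optimal list were at a minority of proteasome genes, and the share of standard subunits was near that of protein-coding genes in general. An optimal summit lay in the region of 11 of 48 genes (22.9%), against 30.7% of all protein-coding genes. It was 10 of 32 for the standard subunits (31.2%) and 1 of 16 for the paralogues (6.25%). Proteasome genes are short, with regions of 2881 to 6500 bp, and of the 7991 protein-coding genes with regions in that range 25.2% held an optimal summit. At promoters the count was 8 of 48 (16.7%), against 19.3% of all protein-coding genes. These counts depended on which replicates had to share a peak, a filter that can only lower them. Keeping only optimal peaks that were also among the strongest of both other replicates gave 5, 3 and 5 promoters without replicates 1, 2 and 3. The shares of all genes were 14.5%, 14.2% and 15%. Without replicate 2 the region count was 6, against 25.2% of all. In the pooled list, which reaches weaker peaks, the counts were 26 of 48 in the region (54.2%), against 50.4% of all, and 24 of 48 at the promoter (50%), against 40.4% of all. The counts differed strongly between the standard subunits and their paralogues. In the pooled list 23 of 32 standard genes (71.9%) and 1 of 16 paralogues (6.25%) had a promoter summit.

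The 11 genes held 12 optimal summits, and none was among the strongest 2273 of the 9095 optimal peaks, which hold the best summit of 35.9% of all bound genes. The deposited signal of these 12 peaks was between 375 and 965, while the optimal list ran from 358 to 20268 with a median of 627. The median rank of a gene's best optimal summit was 6989 for the 11 proteasome genes and 3524 for the 4281 protein-coding genes with an optimal summit. Of the 11, 4 had their best summit among the strongest 4547 peaks, against 61% of all bound genes. These rank comparisons were not matched for region length. Regions of protein-coding genes run up to 1967857 bp, against 6500 bp for proteasome genes, and a longer region can hold more summits. The part of length in the best ranks was not tested. In the replicates' own lists, 6 of the 12 summits had a match within 100 bp among the strongest 9095 peaks of all 3 replicates, 4 in 2 replicates and 2 in 1 replicate.

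Among the core genes, Prosbeta1, which codes for a catalytic subunit of the beta ring, had the strongest peak, rank 2438 with a signal of 965. Its matching peak ranked 2903, 2382 and 2659 in replicates 1, 2 and 3 (mean 2648 ± 261, SD, n = 3), so the replicates placed it closely together. The summit, at position 16014872 of chromosome 2R in an intergenic stretch, was -85 bp from the Prosbeta1 start and 36 bp from the start of Rrp42, a subunit gene of the RNA exosome, to which it was closer. Prosbeta2, another catalytic subunit, had its summit at position 14999550 of chromosome 3L, -401 bp from its start, rank 6989 and signal 449. The replicate ranks were 8643, 5947 and 8444 (mean 7678 ± 1502), and the summit lay in a coding exon of the neighbour mRpL39, 116 bp from that gene's start. Prosalpha5, a structural subunit of the alpha ring, had an optimal summit at position 17411886 of 2R, outside the promoter at -881 bp, rank 5241 and signal 563. It ranked 5563, 6292 and 4965 in the replicates (mean 5607 ± 665) and was nearest to the start of Prosalpha5 itself. These 3 genes were all of the core genes with an optimal summit.

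Rpn10, the cap subunit that serves as a receptor for ubiquitin chains, had the strongest peak of the cap genes. Its summit at position 21537009 of 3L lay 9 bp past the start, in the 5′ UTR, with rank 3367 and signal 773. The replicate ranks were 2819, 4339 and 3962 (mean 3707 ± 792). The nearest start of another protein-coding gene was 2340 bp from that of Rpn10. Rpn13, another ubiquitin receptor of the cap, had 2 optimal summits on 2R, at position 13960522 (rank 8528, signal 379, -118 bp) and at position 13961373 (rank 7820, signal 408, -969 bp). The promoter summit ranked 7693, 8445 and 11118 in the replicates and the distal one 10224, 11308 and 6582, so each fell below rank 9095 in at least 1 replicate. The distal summit lay in an intron of CtsL1, a cathepsin gene, and was nearest to a start of that gene. Rpn1, a scaffold of the cap's base, had its summit at position 19915183 of 3L, 132 bp past the start in the 5′ UTR, at rank 8628 and signal 375. It had no matching peak in replicate 1 and ranked 7794 and 8150 in replicates 2 and 3.

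For the ATPases, Rpt2 had a summit at position 23931458 of 3R, -24 bp from its nearest start in the 5′ UTR, with rank 7473 and signal 423. It ranked 9139, 7344 and 7660 in the replicates (mean 8048 ± 958). The Rpt5 summit, at position 23752886 of 3R, was 10 bp past the start, with rank 8574 and signal 378, and the replicates spread widely at 12052, 7320 and 10374 (mean 9915 ± 2399). Only replicate 2 had it above rank 9095. Rpt3R, a paralogue of Rpt3, had a stronger peak than both, rank 4133 and signal 672 at position 9756371 of 3R, 139 bp past its start. Replicates 1 and 2 ranked it 3723 and 3822, and replicate 3 had no summit within 100 bp. This summit lay in the intron of Rpt3R and 120 bp from the start of Alg12, a glycosylation gene whose start is 19 bp from that of Rpt3R, so the peak was nearer to Alg12.

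Rpn8 and Rpn12, both subunits of the cap's lid, had optimal summits outside their promoters. The Rpn8 summit, at position 24402418 of 2R, was -587 bp from a start of Rpn8 and 34 bp from a start of the kinase gene Slik, with rank 7056, signal 446 and replicate ranks of 7159, 8170 and 5674 (mean 7001 ± 1255). The Rpn12 summit, at position 16581786 of 3L, was -1242 bp from the start in a noncoding exon, with rank 3421, signal 765 and replicate ranks of 6944, 3646 and 3747. The nearest protein-coding start was that of Smn, 239 bp away. Over all 12 optimal summits, 11 lay in the region of at least 1 other gene, and 6 were nearest to a start of a proteasome gene.

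**Figure D1:**
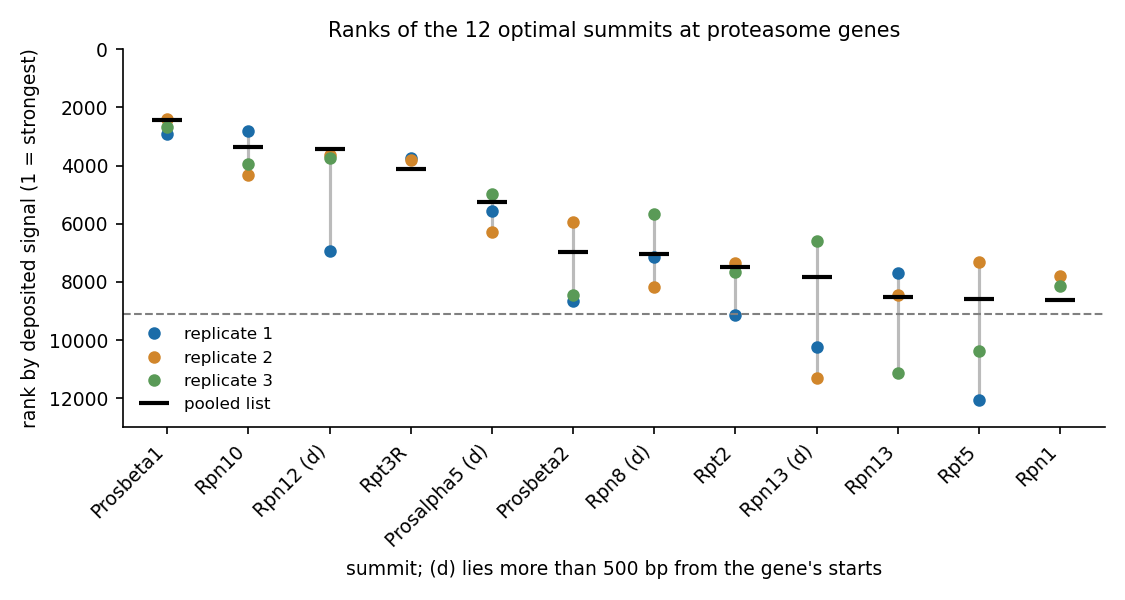
Rank by deposited signal (vertical axis, 1 at the top, the strongest) of the 12 optimal summits at proteasome genes, in replicates 1, 2 and 3 (coloured points) and in the pooled list (black bars); the dashed line is rank 9095 and (d) marks summits over 500 bp from the gene's starts. Prosbeta1 sits between 2382 and 2903 in all replicates, while Rpt5 spreads from 7320 to 12052.

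Just outside the optimal list lay more peaks of the same genes. The promoter summit of Prosalpha5 ranked 9796, the region summit of Rpn7 10366, and the summits of Rpn9 10417 and 10864. A promoter summit in the pooled list that was not in the optimal list was present at 16 of 48 proteasome genes (33.3%), against 21.1% of all protein-coding genes, and all 16 were standard subunits. Their best promoter ranks ran from 9796 to 26562. The strongest of them after Prosalpha5 and Rpn9 were Prosbeta7 (rank 11002, 2 bp past the start), Prosalpha7 (rank 11094, -13 bp), Prosbeta3 (rank 11909, -147 bp), Rpn2, the other base scaffold (rank 12121, -65 bp), and Prosbeta5, a catalytic subunit (rank 12204, -144 bp). Rpn8 followed at rank 12752, Rpn3 at 15195, Rpn12 at 15852 and Rpn5 at 16871. The weakest were Prosalpha4 at rank 19969, Rpt3 at 20849, Prosalpha2 at 21466, Prosalpha6 at 22083 and Rpn11, the lid subunit that removes ubiquitin, at 26562. Prosbeta6 and Rpn7 had a pooled summit in the region but not at the promoter.

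**Figure D2:**
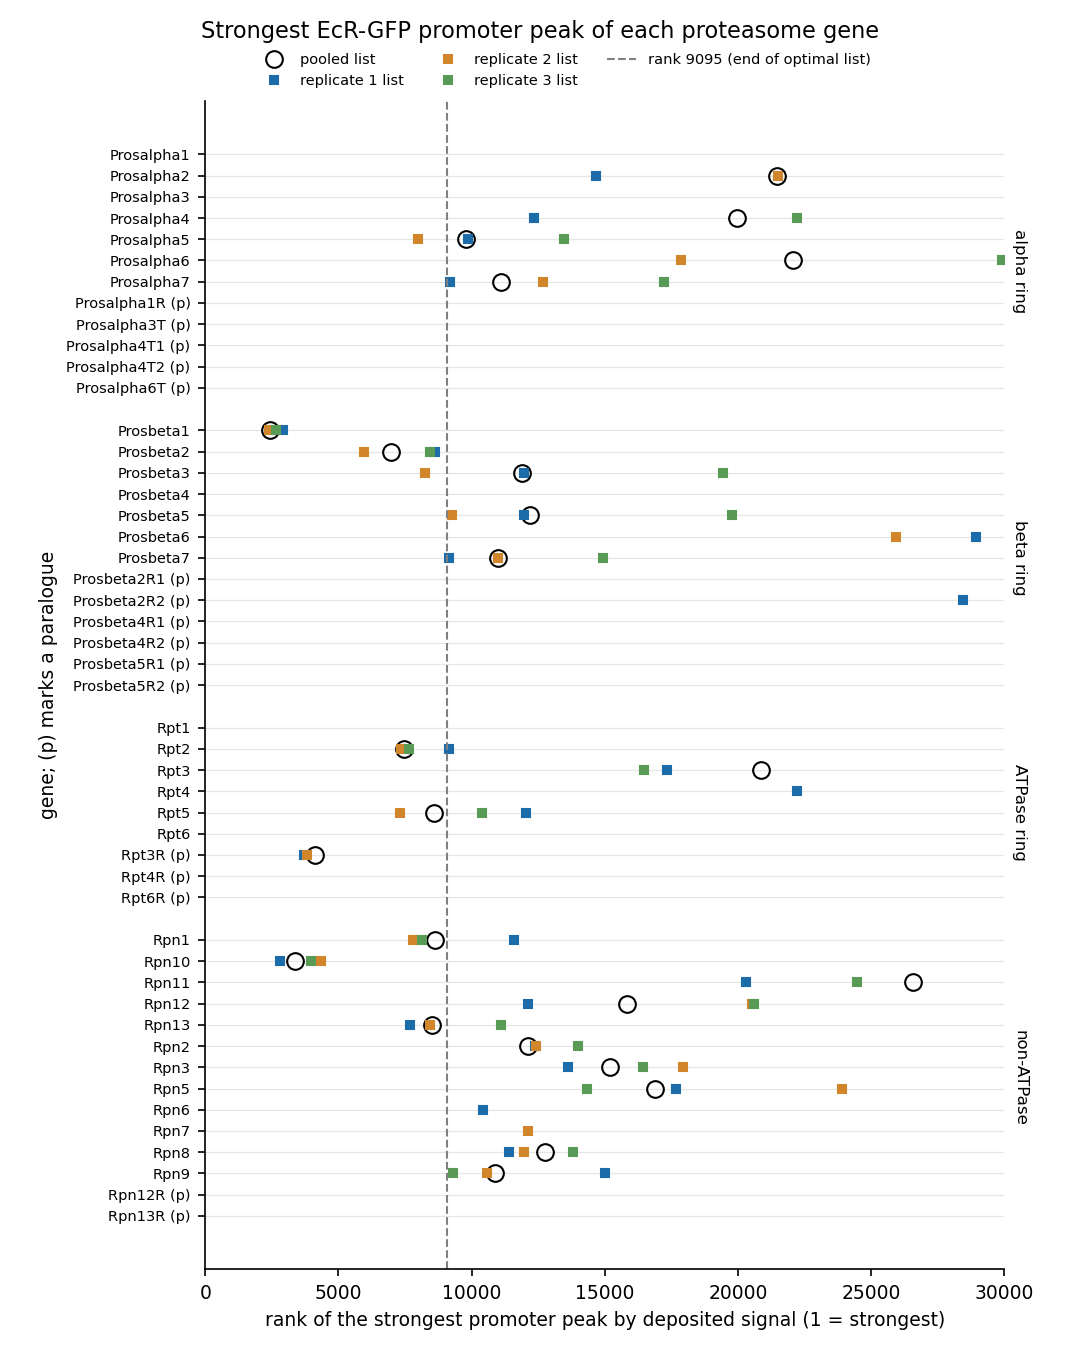
Rank of the strongest promoter peak (horizontal axis, 1 is the strongest of 30000) for each of the 48 proteasome genes, grouped by subcomplex, in the pooled list (open circles) and in the lists of replicates 1, 2 and 3 (coloured squares). Rows with no mark had no promoter summit in any list, most points lie to the right of the dashed line at rank 9095, and Rpt3R is the only paralogue with a pooled promoter peak.

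No pooled summit lay in the region of 22 proteasome genes. Of these, 7 were standard subunits: Prosalpha1, Prosalpha3, Prosbeta4, Rpt1, Rpt4, Rpt6 and Rpn6. The other 15 were the paralogues Prosalpha1R, Prosalpha3T, Prosalpha4T1, Prosalpha4T2, Prosalpha6T, Prosbeta2R1, Prosbeta2R2, Prosbeta4R1, Prosbeta4R2, Prosbeta5R1, Prosbeta5R2, Rpt4R, Rpt6R, Rpn12R and Rpn13R. Single replicates gave a promoter peak for 3 of the 22, at rank 10421 for Rpn6, 22205 for Rpt4 and 28446 for Prosbeta2R2, all in replicate 1.

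Where the pooled promoter summits lay was similar to other genes. The strongest promoter summit of the 24 genes was at a median of -69.5 bp from the nearest start of the gene, against -38 bp for all protein-coding genes with such a summit. Of the 24, 21 (87.5%) were within 300 bp, against 82.1% of all. Upstream of the start lay 16 of the 24 (66.7%), against 58.6% of all. The median rank was 11501 for the proteasome genes and 9581 for all. The median rank was 11501 for the 10 core genes and 11492 for the 14 cap genes, but within the core it was 19969 for 5 alpha ring genes and 11002 for 5 beta ring genes. Core summits lay at a median of -114 bp and cap summits at -44.5 bp, with 8 of 10 (80%) and 8 of 14 (57.1%) upstream and 8 of 10 (80%) and 13 of 14 (92.9%) within 300 bp. These differences were not tested.

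**Figure D3:**
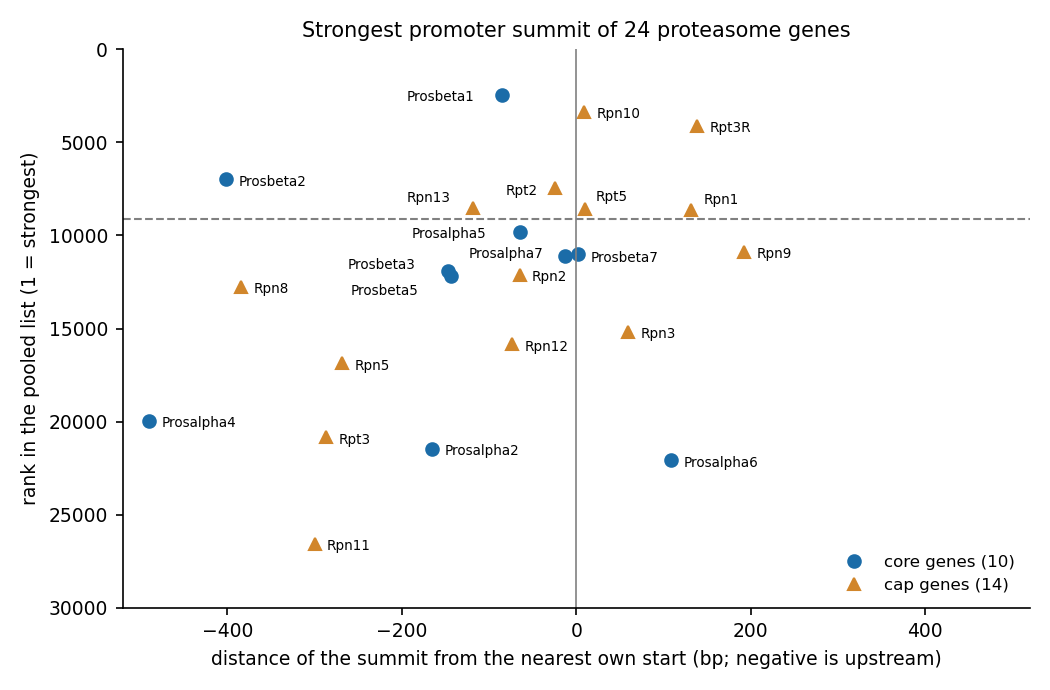
Distance of the strongest pooled promoter summit from the nearest start of its own gene (horizontal axis, bp, negative upstream) against its rank in the pooled list (vertical axis, 1 at the top) for 10 core genes (circles) and 14 cap genes (triangles). Of the 24 summits, 21 are within 300 bp of the start, and 8 lie above the dashed line at rank 9095.

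The replicates showed how firm these shares are. Among the strongest 9095 peaks of replicates 1, 2 and 3, a promoter summit was found at 5, 10 and 5 of 48 proteasome genes (10.4%, 20.8% and 10.4%), against 19%, 19.5% and 18.3% of all protein-coding genes. Replicate 2 stood apart from the other two at the proteasome genes but not over all genes. Prosbeta1, Prosbeta2 and Rpn10 were the only genes with such a summit in all 3 replicates. In the whole lists the counts were 27, 23 and 22 of 48 (56.2%, 47.9% and 45.8%), against 41.9%, 41.4% and 38.9% of all protein-coding genes. Differences between groups of genes were tested over the 3 replicates by an exact two-sided permutation of signs, for which the smallest possible p is 0.25, so no difference could pass a conventional threshold. There were 32 such comparisons, and a p of 0.25 became 0.364 after Benjamini-Hochberg adjustment.

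The paralogues had far fewer promoter summits than the standard subunits. In the whole lists of replicates 1, 2 and 3, 25, 22 and 22 of 32 standard genes had a promoter summit (78.1%, 68.8% and 68.8%), against 2, 1 and 0 of 16 paralogues (12.5%, 6.25% and 0%). The groups did not overlap, and the difference was 65.6 ± 3.12 percentage points (SD, n = 3, exact permutation p = 0.25, adjusted p = 0.364). A promoter summit in all 3 whole lists was present at 18 of 32 standard genes (56.2%) and 0 of 16 paralogues, against 34.7% of all protein-coding genes. No promoter summit in any of the 3 lists was found for 5 of 32 standard genes (15.6%) and 14 of 16 paralogues (87.5%), against 53.6% of all. In the optimal list the same groups gave 7 of 32 standard genes (21.9%) and 1 of 16 paralogues at the promoter, against 19.3% of all. The standard genes exceeded the other protein-coding genes by 31.2 ± 4.64 percentage points in the whole lists (exact permutation p = 0.25). Among the strongest 9095 peaks the difference was -0.187 ± 7.9 points (exact permutation p = 1), with replicate 2 above and replicates 1 and 3 below the other genes.

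**Figure D4:**
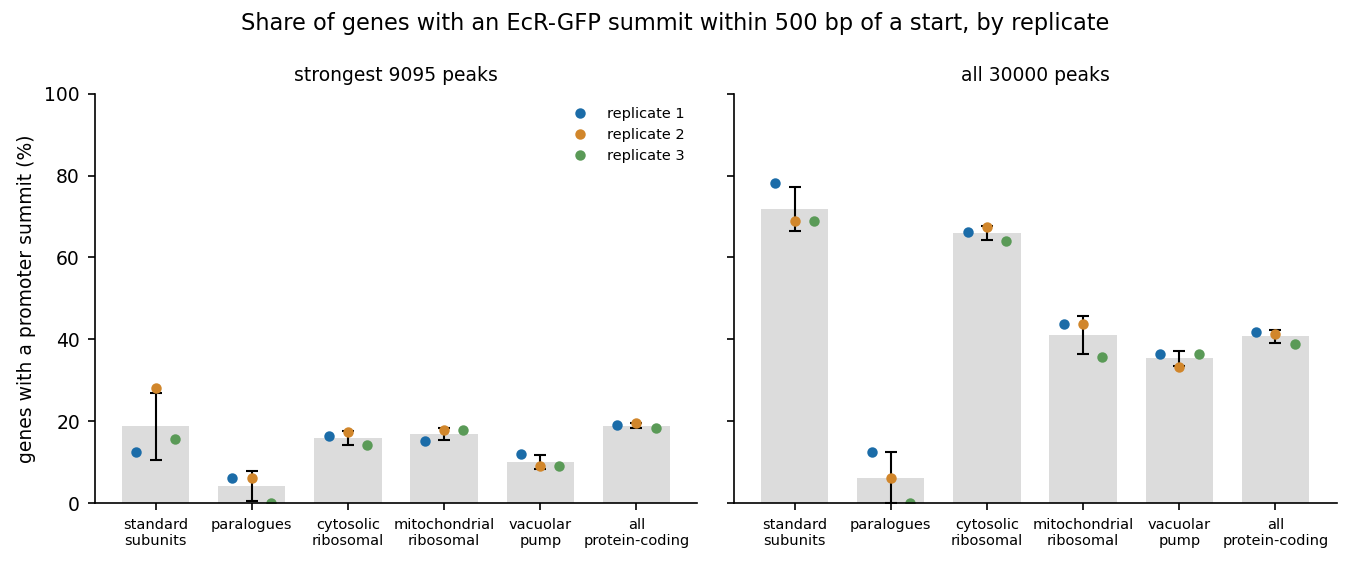
Share of genes with a summit within 500 bp of a start (vertical axis, %) in the strongest 9095 peaks (left) and in all 30000 peaks (right) of each replicate (points), with the mean (bars) and SD (error bars, n = 3) for standard proteasome subunits, paralogues, other gene families and all protein-coding genes. In the right panel the standard subunits average 71.9%, and the paralogues 6.25%.

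Core and cap genes were compared in each list. In the optimal list 3 of 25 core genes (12%) and 8 of 23 cap genes (34.8%) had a summit in the region, against 30.7% of all protein-coding genes. At the promoter, 2 of 25 core genes (8%) and 6 of 23 cap genes (26.1%) had one, against 19.3% of all. In the pooled list 10 of 25 core genes (40%) and 14 of 23 cap genes (60.9%) had a promoter summit, against 40.4% of all, so the core share was near that of genes in general. Among the strongest peaks of replicates 1, 2 and 3, the promoter share was 8%, 16% and 8% for core genes and 13%, 26.1% and 13% for cap genes. The core share was lower in every replicate, with a core minus cap difference of -6.72 ± 2.91 points (SD, n = 3, exact permutation p = 0.25). When the optimal peaks were limited to those among the strongest peaks of both replicates 1 and 3, leaving out replicate 2, the promoter difference was 3.65 points in place of -18.1 points in the full optimal list, with Rpn10 as the only cap gene left beside Prosbeta1 and Prosbeta2.

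Of the paralogues, 11 are core and 5 are cap genes, so the difference was also taken without them. Their part in it was not tested. Between standard subunits alone, the pooled promoter count was 10 of 14 core genes (71.4%) and 13 of 18 cap genes (72.2%), against 40.4% of all protein-coding genes. In the strongest peaks of the replicates the difference for standard subunits was 0.529 ± 2.79 points (exact permutation p = 0.75), with core higher in replicates 1 and 2 and cap higher in replicate 3. In the optimal list it stayed negative at -13.5 points, with 2 of 14 standard core genes (14.3%) and 5 of 18 standard cap genes (27.8%). The share of all protein-coding genes was 19.3%. Cap genes also have longer regions, with a median of 3686 bp against 3201 bp for the core. The part of gene length in the region counts was not tested.

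Within the standard genes, a promoter summit was present in all 3 whole lists at 2 of 7 alpha ring genes (28.6%), 5 of 7 beta ring genes (71.4%), 2 of 6 ATPase genes (33.3%) and 9 of 12 non-ATPase genes (75%), against 34.7% of all protein-coding genes. In the pooled list both rings of the core had the same count, 5 of 7 standard genes each (71.4%), while 3 of 6 ATPase genes (50%) and 10 of 12 non-ATPase genes (83.3%) had a promoter summit. The share of all protein-coding genes was 40.4%. Over the 3 replicates the whole-list promoter share was 57.1% ± 0 for standard alpha ring genes and 81% ± 8.25 for standard beta ring genes. All protein-coding genes were at 40.7% ± 1.57. In the strongest peaks the shares of the same alpha and beta ring genes were 4.76% ± 8.25 and 33.3% ± 8.25, against 18.9% ± 0.557 of all. With 6 to 12 genes in a subcomplex, 1 gene moves these shares by a large step, and no test was made.

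**Figure D5:**
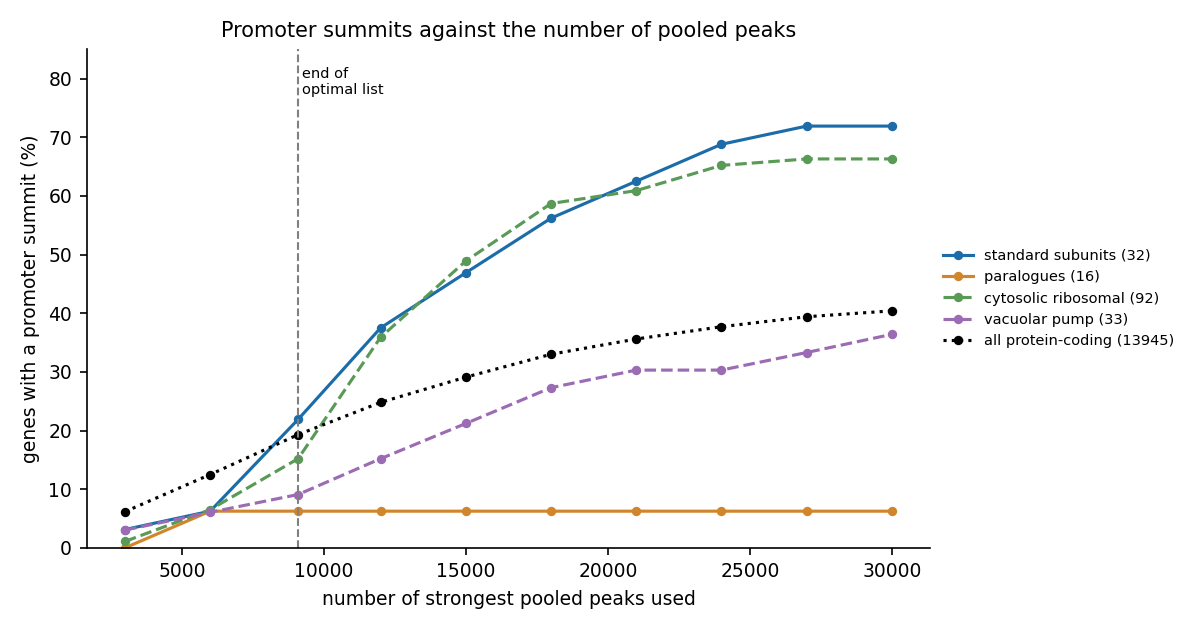
Share of genes with a promoter summit (vertical axis, %) when only the strongest 3000 to 30000 pooled peaks are used (horizontal axis), for standard proteasome subunits, paralogues, ribosomal and vacuolar pump families and all protein-coding genes; the dashed line marks the 9095 optimal peaks. The standard subunits are at 6.25% with 6000 peaks, where all genes are at 12.5%, and at 71.9% with 30000 peaks, where all genes are at 40.4%.

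The share of standard subunits thus depended on how far down the pooled list was read. With the strongest 3000 peaks 1 of 32 standard genes (3.12%) had a promoter summit, against 6.17% of all protein-coding genes. With 6000 peaks the share was 6.25%, against 12.5% of all. With 12000 peaks it was 37.5%, against 24.8% of all. With 18000 peaks it was 56.2%, against 33% of all, and the paralogues stayed at 6.25% from 6000 peaks on. The cytosolic ribosomal protein genes, another large housekeeping family, followed nearly the same course, with 1.09% at 3000, 15.2% at 9095 and 66.3% at 30000 peaks. The genes of the vacuolar proton pump, which acidifies organelles, stayed lower, with 9.09% at 9095 and 36.4% at 30000 peaks. In both families every gene with a matching symbol was counted, with no paralogues set apart. All 48 proteasome genes, with the paralogues counted in, were at 16.7% and 50%.

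Set against these families, the 48 proteasome genes had a promoter share of 50% ± 5.51 in the whole replicate lists, with the 16 paralogues counted in. It was lower than that of the cytosolic ribosomal protein genes in every replicate, with a difference of -15.9 ± 5.13 points (exact permutation p = 0.25). The 32 standard subunits alone, at 78.1%, 68.8% and 68.8% in replicates 1, 2 and 3, were above the cytosolic ribosomal protein genes, at 66.3%, 67.4% and 64.1%, in each replicate, a difference that was not tested. The share of all 48 was higher than that of the vacuolar pump genes by 14.6 ± 5.21 points and than that of the mitochondrial ribosomal protein genes by 8.9 ± 4.32 points (exact permutation p = 0.25 for each). In the strongest peaks none of these 3 promoter differences had the same sign in all replicates, with means of -2.05 ± 4.88, 3.79 ± 7.05 and -3.01 ± 5.4 points in the same order.

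Standard subunit genes are close to other genes, which bears on how a summit is assigned. Another protein-coding start was within 500 bp of the gene's start for 21 of 32 standard genes (65.6%) and 3 of 16 paralogues (18.8%), against 30.9% of all protein-coding genes. A pooled promoter summit was present at 16 of these 21 standard genes (76.2%) and 1 of these 3 paralogues, against 56% of all genes with a close neighbour. Among genes with no such neighbour the counts were 7 of 11 standard genes (63.6%) and 0 of 13 paralogues, against 33.5% of all. The part of close neighbours in the counts beyond this split was not tested. When a summit was counted only for the nearest protein-coding start, 5 promoters (Rpn1, Rpn10, Rpn13, Rpt2 and Rpt5) and 0 core promoters remained in the optimal list.

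The motifs near the summits were counted as a description. The DRE core lay within 100 bp of 3 of the 12 optimal summits (at Prosbeta1, Rpn13 and Rpt5), against 0.935% of all optimal summits. Shares over all optimal summits include summits away from promoters, while most of the 12 were promoter summits. Of the 24 strongest promoter summits of these genes, 7 had a DRE core and 4 an EcR hexamer within 100 bp. No share over the promoter summits of all genes was computed. Among the standard genes a pooled promoter summit was present at 9 of 12 with a DRE core in the promoter (75%) and 14 of 20 without (70%). Over all protein-coding genes the shares were 58.5% with and 38.6% without a DRE core. The hexamers at optimal summits were those of Prosbeta1, Rpn10, Rpn12, Prosbeta2, Rpn8 and Rpt2. In promoters an EcR hexamer was found at 5 of 32 standard genes (15.6%), against 26.6% of all.

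The paired form of the EcR site, AGGTCA followed by 1 base and TGACCT with at most 1 mismatch, was near 0 of the 12 summits and 0.253% of all optimal summits. The core of motif 1, GGTCACAC, a sequence common at housekeeping starts in Drosophila that can share 5 letters with an EcR hexamer, was in the promoters of 5 of 32 standard genes (15.6%), against 7.7% of all, and near 0 of the 12 optimal summits, against 0.946% of all. The core of the antioxidant response element, TGACNNNGC, read by the stress factor cnc with maf-S, was in 5 of 32 standard promoters (15.6%), against 8.63% of all, and near 0 of the 12 optimal summits, against 8.47% of all. The repeat GAGAGAG was in 0 of 32 standard promoters, against 5.87% of all, and near 1 of the 12 optimal summits, that of Prosalpha5, against 10.6% of all optimal summits. CACGTG, the E-box, was in 0 of 32 standard promoters, against 4.2% of all, and near 1 of the 12 summits, that of Rpt3R, against 2.62% of all. The cAMP response element TGACGTCA was in 0 of 32 standard promoters, against 0.437% of all, and near 0 of the 12 summits, against 0.682% of all.

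Genes that act with the proteasome were counted in separate lists. The share with an optimal summit differed between the lists, and a few of the genes had strong peaks. Of 11 genes for its assembly, regulation and associated proteins, 4 (36.4%) had an optimal summit in the region, against 30.7% of all protein-coding genes. Keap1, the inhibitor of the stress factor cnc, had 6, with the best at rank 325 and replicate ranks of 381, 471 and 262. The cnc gene, whose product activates proteasome genes under stress in Drosophila, had 7 in a region of 43132 bp, the best at rank 1086. Ubr3, a ubiquitin ligase gene, had 5, the best at rank 440, and Usp14, which codes for a deubiquitinase at the proteasome, had 1 at rank 6670. The Usp14 summit was -785 bp from its own start. It lay in an intron of CG4972, 389 bp from a start of CG4972, and so was nearer to that gene. Pomp, PI31, REG, Sem1, Uch-L5, maf-S and rngo had none.

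Of 11 genes for ubiquitin and for delivery of substrates, 4 (36.4%) had an optimal summit in the region, against 30.7% of all protein-coding genes. They were TER94, the segregase that extracts ubiquitylated proteins (rank 757, 269 bp past its start), the polyubiquitin gene Ubi-p5E (rank 921, -89 bp), the ubiquitin-activating enzyme gene Uba1 (best rank 2104, in its coding sequence) and Npl4, a cofactor of TER94 (best rank 3745, -1620 bp). The best Npl4 summit lay in an intron of the neighbour Ssadh, 642 bp from a start of Ssadh, and so was nearer to that gene. Of the 9 genes of the COP9 signalosome, a complex related to the cap's lid, 0 had an optimal summit in the region, against 30.7% of all protein-coding genes, and 2 (22.2%) had a pooled one, against 50.4% of all. The best peaks of Keap1, Ubr3, TER94, Ubi-p5E, cnc and Uba1 each ranked above those of all 11 bound subunit genes, of which Prosbeta1 was the strongest at rank 2438. The regions of cnc (43132 bp), Ubr3 (19988 bp), Keap1 (8004 bp) and Uba1 (7040 bp) are longer than any subunit gene's, at most 6500 bp. Those of TER94 (6401 bp) and Ubi-p5E (4772 bp) are not. The region of Npl4 (15650 bp) is also longer than any subunit gene's. The part of length in these ranks, and in the counts of these lists, was not tested.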

How the data were processed

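ChIP-seq of EcR-GFP was analysed from deposited peak lists in dm6. Per the deposited notes, the authors made a list for each replicate against a control, a pooled list from all 3 replicates, and an optimal list by irreproducible discovery rate. Aligner and peak caller: not given in the sources used here. Each peak's signal, as deposited by the authors, was used only for ranks within a list, and the control was not used here. Of the other deposited columns, only the summit offset was read. Genes came from Ensembl 115 (13945 protein-coding genes on chromosomes with peaks, of 13986), an annotation of that genome release, in which 0 peaks exceeded a chromosome's length. Summits matched between lists within 100 bp. Shares were compared over the 3 replicates' lists by an exact two-sided sign permutation with Benjamini-Hochberg adjustment over 32 comparisons. Such p-values cover only the spread between these biosamples. Motifs were searched on both strands of RefSeq's release 6 sequence with Python 3.11.15, pandas 2.3.3 and numpy 2.4.6. Depth is unknown, so no counting interval is given, and 1 summit can count for several genes. Every member was named, with full values for those with an optimal summit. The members and lists were chosen with earlier results of these data known. The counting steps were tested on simulated placements. Alternatives were other numbers of peaks, other windows, other assignments and optimal peaks shared with the strongest peaks of all replicates but 1.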

Additional observations from a re-analysis of the deposited data

How the results depend on the processing

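Of 113 alternatives, 55 left the value near the reported one, 57 moved it and 1 turned its sign. With only the strongest 4547 optimal peaks, the region counts were 4 proteasome, 1 core, 3 cap and 3 standard genes (all protein-coding genes 18.7%), the promoter counts were 3 proteasome, 1 core and 2 cap genes (all 9.53%), and the core minus cap promoter difference was -4.7 points. With all pooled peaks the region counts were 26, 11, 15 and 25 for the same groups (all 50.4%), and the promoter counts 24, 10 and 14 (all 40.4%). Each replicate was left out in turn by keeping the optimal peaks that were also among the strongest of both others. The optimal list itself still came from all 3 replicates, and this filter can only lower a count. It gave region counts of 6 to 8 proteasome, 3 to 5 cap, 6 to 8 standard and 0 to 1 paralogue genes (all 25.2% to 25.8%). Promoter counts were 3 to 5 proteasome and 1 to 3 cap genes (all 14.2% to 15%), and the core minus cap difference was -5.04 to 3.65 points. Without replicate 2 the sign turned, and the cause was not tested, beyond the fact that 6681 of 9095 peaks were kept. The strongest peaks of replicate 1 alone gave promoter counts of 5 proteasome and 3 cap genes (all 19%), those of replicate 3 alone also 5 and 3 (all 18.3%), with 0 paralogues in the region count (all 30.1%), and those of replicate 2 alone 4 core genes (all 19.5%). Counting a summit only for the nearest start gave region counts of 6 proteasome, 1 core, 5 cap, 6 standard and 0 paralogue genes (all 22.5%) and promoter counts of 5 proteasome and 0 core genes (all 16.5%). With the gene body only, region counts were 6 proteasome, 0 core and 5 standard genes (all 19.1%), and with 5 kb on both sides 23 proteasome, 10 core, 13 cap, 21 standard and 2 paralogue genes (all 51.9%). A promoter of 250 bp gave 1 core gene (all 15.8%). Standard subunits only gave a core minus cap difference of -13.5 points. With 50 bp on each side of the 12 summits, matches were 1 for the DRE core (0.495% of all optimal summits), 0 for the GAGA repeat (5.08%) and 0 for the E-box (1.34%), and the paired site had 1 match within 100 bp with 2 mismatches allowed (2.66%).

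No paired analysis was possible because there is only 1 group of samples, so no samples can be paired between groups. Differences between groups of genes were taken within each replicate. Limits are the small counts, in which a few genes decide a share, the unknown depth, the lack of an untagged or other comparison sample here, the overlap of gene regions and the whole-animal source.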

Other observations

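The spacing of summits bears on how finely a peak can be placed at these compact genes. No pair of distinct summits was closer than 199 bp in any of the 5 lists. Of the gaps of up to 500 bp between neighbouring pooled summits, 82.2% were 190 to 230 bp long. At the proteasome genes 14 of 15 such gaps were in that range. The commonest width of an optimal peak was 476 bp, at 3 of 12 peaks of proteasome genes and 4.69% of all 9095.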
